A study of Arabidopsis thaliana with 12 samples.

Results

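PR1, EDS1, NIMIN1, CBP60G and CMPG1 are 5 Arabidopsis thaliana genes of salicylic acid signalling and pathogen response. They were taken by their identifiers from 3 deposited tables that together list 1618 features, and each value given here is the level in Col-0 and in a mutant wherever a table lists the gene. The genes were chosen by their listing, RPKM values and q-values in these same tables, with earlier results in view, so their values are a description and no test of them is offered. RNA came from seedlings of 2 to 3 weeks grown in long days and was depleted of ribosomal RNA before sequencing. There were 12 samples, 3 for each of 4 genotypes: the wild type Col-0, nrpe1, the heterozygote swi3b +/- and idn2-1. RNA polymerase V, whose catalytic subunit is NRPE1, makes the non-coding transcripts that guide DNA methylation and gene silencing. IDN2 binds RNA in the same pathway, and SWI3B belongs to the core of SWI/SNF complexes, which move nucleosomes. The swi3b +/- plants keep a wild-type copy of SWI3B, and the labels name no allele for nrpe1. Each table compares 1 mutant with Col-0 and holds a single value per genotype, so values per sample and the spread between replicates cannot be given. A gene is listed where the authors' q-value is below 0.05.

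Salicylic acid is the hormone that plants use against pathogens that feed on living cells. EDS1, a lipase-like protein, acts upstream of its synthesis, and CBP60G, a calmodulin-binding transcription factor, activates genes of that synthesis. The receptor and co-activator NPR1 then works with TGA transcription factors on the promoter of PR1, whose secreted product is the standard marker of the response. NIMIN1 binds NPR1 and holds PR1 expression down. CMPG1 is a U-box ubiquitin ligase whose transcript responds quickly to fungal elicitors, a response described in parsley as well, and it is an immediate pathogen-response gene rather than part of salicylic acid signalling itself.

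The stretches of 250 bases before the annotated starts of EDS1 and CMPG1 are shown because, among the 5 genes, EDS1 had the change closest to the listing threshold and CMPG1 was the only gene listed in all 3 tables. They were read from RefSeq TAIR10.1 on the strand of each gene, at chr3:17758148-17758397 (minus strand) for EDS1 and chr1:24636946-24637195 (plus strand) for CMPG1. Capitals mark TTGAC, the core of the W box bound by WRKY transcription factors, on the strand shown, or its reverse complement GTCAA.
EDS1: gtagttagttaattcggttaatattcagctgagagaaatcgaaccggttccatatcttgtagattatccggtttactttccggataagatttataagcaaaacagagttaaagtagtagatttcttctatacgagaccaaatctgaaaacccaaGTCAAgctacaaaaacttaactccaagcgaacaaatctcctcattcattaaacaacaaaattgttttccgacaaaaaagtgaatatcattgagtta
CMPG1: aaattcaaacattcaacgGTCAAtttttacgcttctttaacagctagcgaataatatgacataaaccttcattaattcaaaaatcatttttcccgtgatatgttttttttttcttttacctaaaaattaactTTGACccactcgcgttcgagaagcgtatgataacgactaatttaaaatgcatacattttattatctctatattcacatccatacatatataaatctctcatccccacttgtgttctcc

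CMPG1 held 2 such cores, at 232 to 228 and at 118 to 114 bases before its start, and EDS1 held 1 at 96 to 92 bases. NIMIN1 and CBP60G held none in the same window. A core on either strand was present before 44.9% of 27443 protein-coding genes and before 2 of these 4. The TGA factor core TGACG was found before 18.6% of all genes and before none of the 4, and the CGCG box forms ACGCGT and CCGCGT, bound by calmodulin-binding CAMTA factors, before 1.67% and 1.76% of all genes and none of the 4. TTGAC and TGACG overlap where TTGACG occurs. An absent match covers these letters in this window alone. All positions count from the RefSeq start, and the deposited locus of EDS1 begins 367 bp inside that gene. The stretch before that later start was not examined.

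Of 15 combinations of a gene and a table, 7 were listed, 6 with a higher level in the mutant and 1 with a lower level. In nrpe1, 2 of the 5 genes were listed, NIMIN1 and CMPG1, both higher, where 1.88% of 27012 features tested were listed, 1.04% as higher and 0.848% as lower. In swi3b +/-, 2 of the 5 were listed, CBP60G and CMPG1, again both higher, against 2.43% of 25877 features listed, 1.87% as higher and 0.556% as lower. In idn2-1, 3 of the 5 were listed, EDS1 and CMPG1 as higher and PR1 as lower, against 3.18% of 27755 features listed, 1.24% as higher and 1.95% as lower. The 5 genes were named from these same comparisons, so nothing is read from their counts beside these shares. Only 1 group of 3 Col-0 samples is labelled, so the 3 comparisons are taken to share it and not to be independent.

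**Figure D1:**
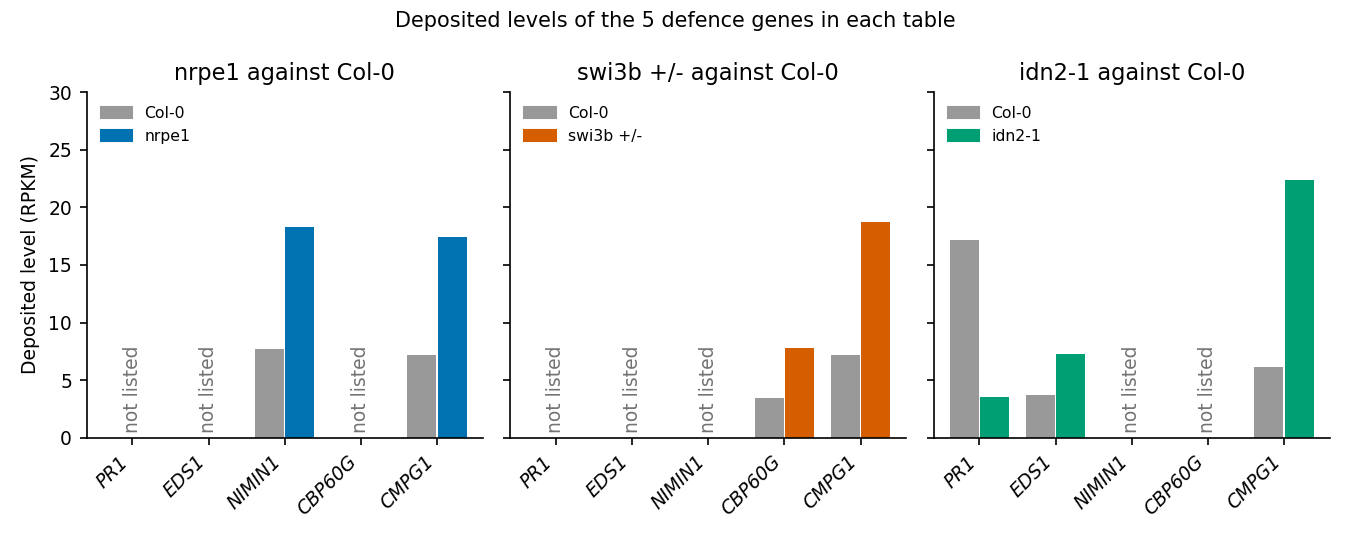
Deposited RPKM (vertical axis, from 0) of the 5 genes in Col-0 (grey) and in nrpe1, swi3b +/- or idn2-1 (coloured), 1 pooled value per bar with no error; "not listed" marks a gene that the table does not hold. CMPG1 stands above Col-0 in all 3 tables, and PR1 in idn2-1 is the only bar pair with the mutant below Col-0.

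The question behind each comparison is which transcripts depend on the mutated silencing or remodelling factor. In the authors' deposited table for nrpe1, NRPE1 itself fell from 3.98 to 1.01 RPKM (q = 0 as printed there). SWI3B and IDN2 are not listed in the tables of their own mutants, so those 2 labels were not checked by this route. The number of reads behind a value is unknown. RBCS1B, a photosynthesis gene of green tissue, stands at 257.8 RPKM in Col-0 and 560.0 in the mutant according to the authors' deposited table for idn2-1 (q = 0.0233), and no other of 4 leaf markers is listed. No member of the marker lists for flower organs (5 genes), root (5) or seed storage (4) is listed in any table, and their levels are not known from these tables. In whole seedlings, fewer cells of a type and less RNA per cell cannot be told apart.

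EDS1 (AT3G48090) forms complexes with PAD4 or SAG101 that pass on signals from intracellular immune receptors. The tables place it on TAIR10 at chromosome 3, 17755374 to 17757780, which lies within the RefSeq gene on the minus strand. Its level in the authors' deposited table for idn2-1 was 3.70 RPKM in Col-0 and 7.25 RPKM in the mutant, a 1.96-fold rise (log2 0.97, q = 0.0418). This was one of the smaller listed changes, ranking 288 of 314 higher genes by fold, where the median rise was 2.31-fold. Its q-value lies near the limit of listing, the largest in that table being 0.0499. At a q-value below 0.01, or with a minimum change of 2-fold, EDS1 would not be called.

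The gene next to EDS1 on each side lies on the same strand. RR5 (AT3G48100), a response regulator induced by cytokinin, ends 279 bp before the annotated start of EDS1. In the authors' deposited table for idn2-1, RR5 rose from 3.27 to 10.7 RPKM, 3.28-fold (q = 3.19e-06). The authors' deposited table for swi3b +/- also has it higher, at 7.79 RPKM against 3.63, a rise of 2.15-fold (q = 0.000727), where EDS1 is not listed. The part of transcripts that run on from RR5 in the EDS1 value was not tested. On the other side AT3G48080, annotated as an alpha/beta-hydrolase superfamily protein, begins 138 bp beyond the end of EDS1 and is not listed in any table. Its coding sequence was identical to that of EDS1 at 83.6% of 1863 aligned bases, but only 23 of 2502 windows of 50 bases (0.919%) of the EDS1 transcript occurred there exactly. No window of the transcripts of PR1, NIMIN1, CBP60G or CMPG1 (853, 574, 2244 and 1364 windows) occurred elsewhere in the 5 nuclear chromosomes. The length of 50 bases is a choice for this check, since no source used here gives the read length.

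CBP60G (AT5G26920, chromosome 5, 9475682 to 9478751) works beside its relative SARD1 as a switch for salicylic acid synthesis. In the authors' deposited table for swi3b +/- its level rose 2.25-fold, from 3.46 RPKM in Col-0 to 7.79 RPKM (log2 1.17, q = 9.49e-05). That is close to the middle of the table, at rank 216 of 479 higher genes with a median rise of 2.18-fold. SARD1, whose coding sequence was identical at 58.1% of the aligned bases, is not listed in any table.

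NIMIN1 (AT1G02450, chromosome 1, 497976 to 498516) encodes a small protein that represses through NPR1. Its level, per the authors' deposited table for nrpe1, rose from 7.69 to 18.3 RPKM, 2.38-fold (log2 1.25, q = 0.00489), at rank 51 of 257 higher genes, whose median rise was 1.91-fold. Under Bonferroni adjustment over all features tested it lost its call. NIMIN-2 and NIMIN-3, which also bind NPR1, are not listed in any table. The target of this repression, PR1, is not listed in nrpe1.

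PR1 (AT2G14610) encodes a secreted antimicrobial protein. In the authors' deposited table for idn2-1 its level fell from 17.2 RPKM in Col-0 to 3.54 RPKM in the mutant, which is 20.6% of Col-0 (4.85-fold, log2 -2.28, q = 3.26e-08). PR1 ranked 28 of 421 lower genes by fold in that table, where the median fall was 2.25-fold. Of the 3 genes listed there, PR1 had the highest level in Col-0 and the lowest in idn2-1, in RPKM. No spread is known for these levels, so their order was not tested.

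The locus given for PR1, chromosome 2, 6240939 to 6242463, is 1525 bp long and reaches 701 bp beyond the annotated 3′ end of the RefSeq gene, which spans 902 bp in a single exon on the minus strand. No other gene of the RefSeq annotation overlaps this locus. The annotation does not cover transposable elements, and reads from any other feature in these 701 bp could not be set apart from PR1. The nearest genes, AT2G14605 at 3128 bp and XTH10 at 2230 bp, are not listed in any table. PRB1, the basic relative of PR1 with 83.5% identical coding bases, is not listed either, nor are the other output genes PR2, PR5, LURP1 and ACD6. Of these 6 pathogenesis-related and defence output genes PR1 was thus the only one listed.

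**Figure D2:**
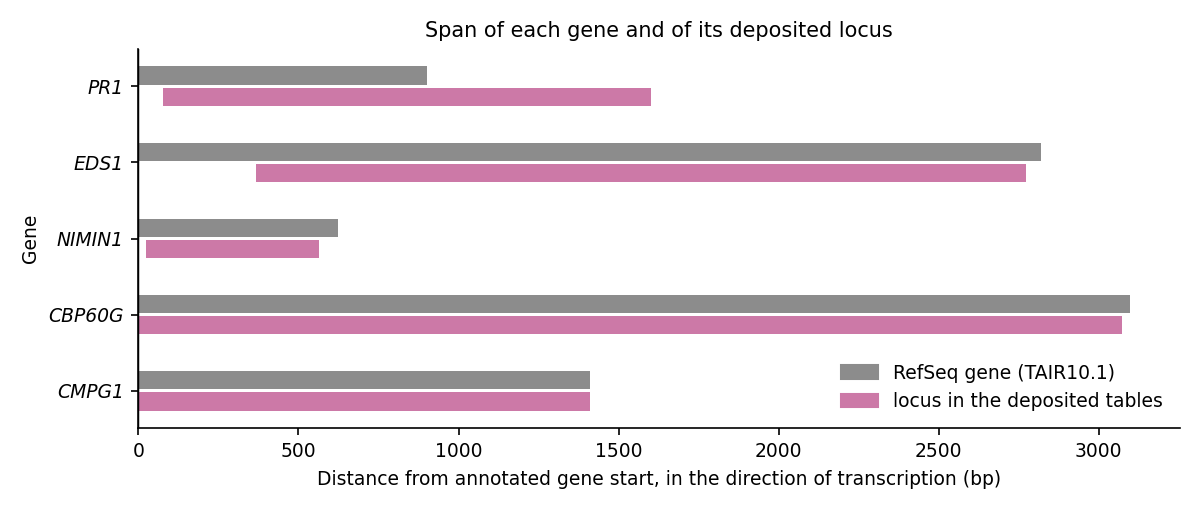
Span of each RefSeq gene on TAIR10.1 (grey) and of its locus in the deposited tables (pink), as distance in bp from the annotated gene start in the direction of transcription. The PR1 locus runs 701 bp past the annotated end, the EDS1 locus starts 367 bp inside the annotated gene, and the CMPG1 spans coincide.

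CMPG1 (AT1G66160, chromosome 1, 24637196 to 24638608) was higher in all 3 mutants. In the authors' deposited table for nrpe1 its level was 17.4 RPKM against 7.17 in the wild type, 2.43-fold higher (log2 1.28, q = 2.90e-06). The authors' deposited table for swi3b +/- gives 18.8 RPKM, 2.62-fold above the same Col-0 value (log2 1.39, q = 1.38e-06). In that for idn2-1, also the authors' deposited table, it stood at 22.4 RPKM against 6.12 in Col-0, a rise of 3.65-fold (log2 1.87, q = 1.60e-07). Whether the 3 rises differ in size was not tested, since no spread is known.

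The Col-0 value of CMPG1 in the idn2-1 table was 0.854 times that in the other tables, close to the median ratio of 0.858 over 237 features that the idn2-1 table shares with either of them. Col-0 values of the nrpe1 and swi3b +/- tables were identical for all 164 shared features above 0. When the Col-0 value of the nrpe1 table was rescaled by the median of 0.858, the log2 ratio of CMPG1 in idn2-1 was 1.86. With a ratio of 0.854 for CMPG1 itself, this had to lie near the 1.87 above, and nothing is read from it. By fold among higher genes CMPG1 ranked 48 of 257 in nrpe1, 139 of 479 in swi3b +/- and 37 of 314 in idn2-1. The neighbours TMK1 and MMD1, the latter ending on the opposite strand 76 bp from CMPG1, are not listed in any table, and neither is AT5G37490, an ARM repeat protein gene with 70.1% identical aligned coding bases.

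**Figure D3:**
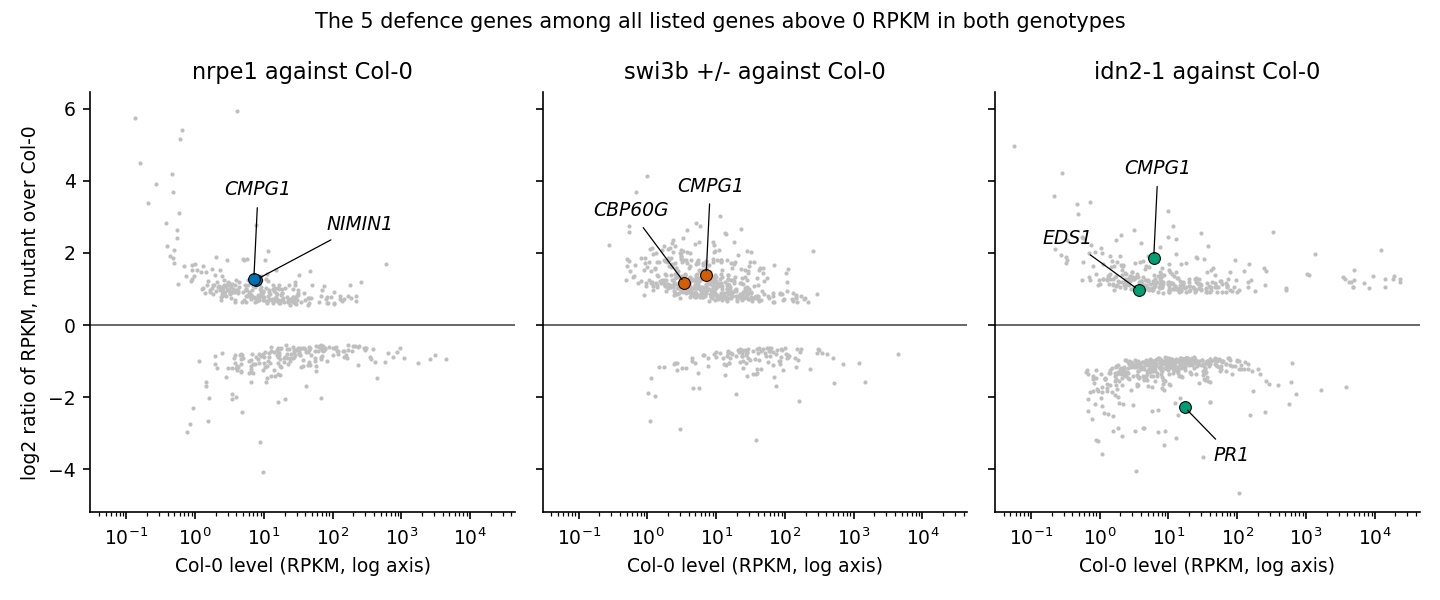
Log2 ratio of RPKM in mutant over Col-0 (vertical axis) against the Col-0 level in RPKM (horizontal, log axis) for listed genes above 0 in both genotypes (grey points), with the listed genes among the 5 in colour. PR1 lies deep among the lower genes of idn2-1 (log2 -2.28), EDS1 lies at the lower edge of the higher genes (log2 0.97), and CMPG1 and NIMIN1 nearly coincide in nrpe1 (log2 1.28 and 1.25).

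For the 8 combinations in which a gene is not listed its level in that mutant is unknown, and the change cannot be called absent. The listed genes of like Col-0 level, within 1.5-fold, show which changes reached a listing. Each level came from the comparison that lists the gene and was not rescaled. Col-0 values of the idn2-1 comparison had a median ratio of 0.858 to those of the others, so these levels match only roughly. For PR1, the smallest listed fall at its level was 1.47-fold in nrpe1 (39 lower genes) and 1.59-fold in swi3b +/- (25 lower genes) in the authors' deposited tables. For EDS1 the smallest listed rise at its level was 1.55-fold in nrpe1 and 1.69-fold in swi3b +/- in the authors' deposited tables, both smaller than its 1.96-fold rise in idn2-1. The median listed rise at that level was 1.96-fold in nrpe1 and 2.23-fold in swi3b +/-, no smaller than the rise of EDS1. For NIMIN1 the smallest listed rise was 1.59-fold in swi3b +/- and 1.86-fold in idn2-1, and for CBP60G 1.56-fold in nrpe1 and 1.96-fold in idn2-1, in the authors' deposited tables. The last of these is EDS1 itself. A gene that varies more between replicates needs a larger change to be listed, and that spread is not known here. Whether a gene listed in 1 mutant differs between mutants was not tested.

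The pathway around the 5 genes was described with a list of 54 genes in 9 groups, which includes them. A U-box group of 4 genes, CMPG1 and PUB23 among them, is counted here, although CMPG1 is not part of salicylic acid signalling itself. In nrpe1 5 of the 54 were listed, in swi3b +/- 11 and in idn2-1 4, but these counts hold the 5 genes that were named for being listed. The other 49 genes, with WRKY33, WRKY53 and WRKY70 among them, were also chosen with earlier results of these data known. Nothing is therefore read from their counts beside the shares of all features. Of the other 49 genes, 3 were listed in nrpe1 (6.12%), all higher, where 1.88% of all features were listed and 1.04% as higher. In swi3b +/- 9 of the 49 were listed (18.4%), all higher, beside 2.43% of all features and 1.87% as higher. In idn2-1 the count was 1 of 49 (2.04%), a higher gene, beside 3.18% of all features listed and 1.24% as higher. The median log2 ratio of the listed genes among the 49 was 0.74 in nrpe1 and 1.39 in swi3b +/-, beside 0.67 and 1.01 for all listed genes, and the 1 gene in idn2-1 had a log2 ratio of 1.14. Of the 49 genes, 38 are listed in no table.

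None of the core genes of salicylic acid synthesis, ICS1, EDS5, PBS3 and EPS1, is listed in any table. Of the 9 synthesis genes and their regulators only CBP60G and its relative CBP60A, a negative regulator of immunity, were listed, in swi3b +/-. CBP60A, per the authors' deposited table, rose 1.61-fold, from 12.0 to 19.3 RPKM (q = 0.0359). Of 6 genes that hydroxylate, methylate or glycosylate salicylic acid or isoleucic acid, DMR6, a salicylic acid hydroxylase, was listed. It rose, per the authors' deposited table for nrpe1, by 1.52-fold, from 11.2 to 17.0 RPKM (q = 0.0306). The 2 pipecolic acid genes ALD1 and FMO1 are not listed in any table.

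Of 4 genes at the EDS1 node, NDR1 was listed beside EDS1, while PAD4 and SAG101 were not. NDR1, which serves a separate class of immune receptors, was given at 8.47 RPKM in Col-0 and 18.6 in idn2-1 by the authors' deposited table, a rise of 2.20-fold (q = 0.0138). None of the salicylic acid receptors NPR1, NPR3 and NPR4 is listed. Among 10 NPR1 partners, which include 6 TGA factors, the glutaredoxin gene GRX480 was listed besides NIMIN1. GRX480, whose protein binds TGA factors, rose 2.62-fold, from 15.1 to 39.7 RPKM, according to the authors' deposited table for swi3b +/- (q = 1.08e-05).

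The WRKY group accounted for 6 of the 11 pathway genes listed in swi3b +/-. All 6 of its 10 members that were listed there rose, by 1.71-fold to 3.62-fold in the authors' deposited table, in which 2.43% of all features were listed and 1.87% as higher. The group was chosen with earlier results of these data known, so nothing is read from this count beside these shares. The authors' deposited table has WRKY46 rising most, from 0.919 to 3.33 RPKM (q = 0.00184), and WRKY40 rising from 5.14 to 12.8 RPKM (q = 9.60e-06). By the authors' deposited tables WRKY18, a partner of WRKY40 in repressing defence genes, rose 1.84-fold in nrpe1 and 1.71-fold in swi3b +/- (q = 0.000112 and 0.00566). WRKY33, WRKY53 and WRKY70 were the other 3 listed in swi3b +/-, and WRKY70 was also listed in nrpe1. No WRKY member of the list is listed in idn2-1. Among 4 U-box genes, PUB23, a ubiquitin ligase that damps pattern-triggered immunity, rose beside CMPG1: the authors' deposited table for swi3b +/- gives 4.03 RPKM in Col-0 and 12.0 in the mutant, 2.98-fold (q = 2.42e-07). PUB22 and PUB24 are not listed in any table.

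**Figure D4:**
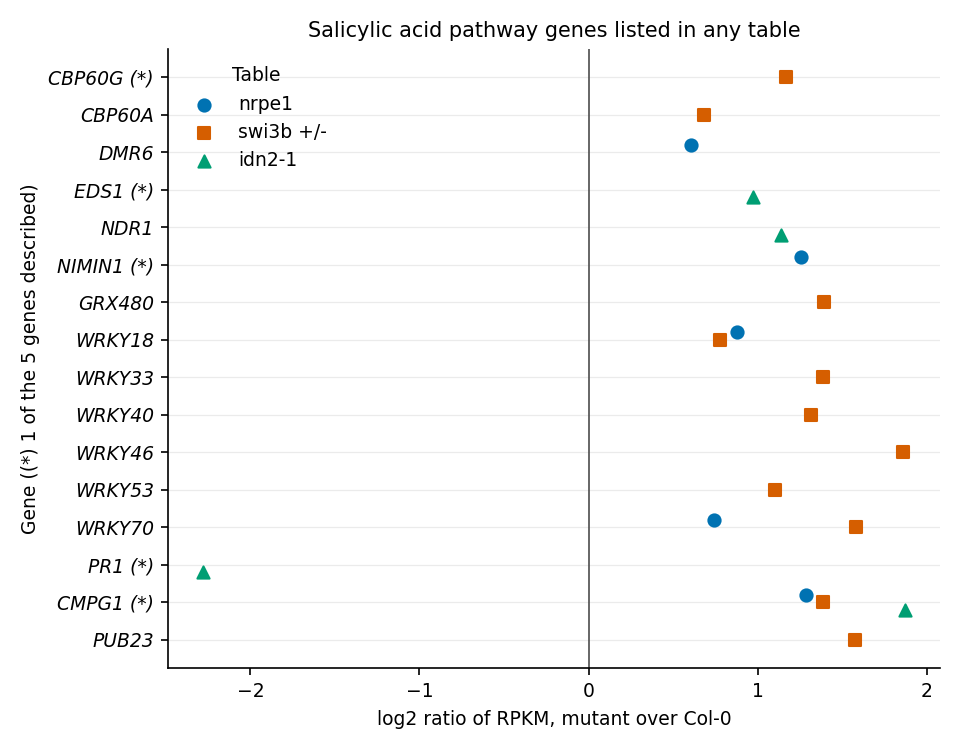
Log2 ratio of RPKM in mutant over Col-0 (horizontal axis) for the 16 pathway genes listed in at least 1 table (vertical axis, ordered by group; an asterisk marks the 5 genes described), 1 symbol per table that lists the gene. PR1 in idn2-1 (log2 -2.28) is the only point left of 0, and 11 of the points belong to swi3b +/-.

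Genes that respond within minutes to touch and other disturbance were also counted. Of a list of 10 such genes, 6 were listed in nrpe1, 10 in swi3b +/- and 5 in idn2-1, all higher, by 1.61-fold to 3.49-fold, 1.66-fold to 7.13-fold and 1.92-fold to 2.99-fold in the authors' deposited tables. Of all features, 1.04%, 1.87% and 1.24% were listed as higher in these tables, and 1.88%, 2.43% and 3.18% in either direction. The list was chosen with earlier results of these data known, so nothing is read from its counts beside these shares. TCH2, a calmodulin-like protein, and TCH4, a cell wall enzyme, were among those listed in all 3 tables, as CMPG1 was. The part of these rapid responses in the values of CMPG1, CBP60G and NIMIN1 was not tested. Of 12 jasmonate genes 3 were listed in nrpe1 (2 higher), 7 in swi3b +/- (all higher) and 3 in idn2-1 (1 higher). Of 9 clock genes 1 was listed in nrpe1 (higher), 2 in swi3b +/- (1 higher) and none in idn2-1. The shares of all features listed in either direction, 1.88%, 2.43% and 3.18%, apply to both lists. These lists, too, were chosen with earlier results known, and nothing is read from their counts.

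Genes with the pattern most like that of CMPG1 were sought among those listed in the same 3 tables, by Euclidean distance of the 3 log2 ratios. The nearest was AT3G21460, a glutaredoxin family gene, at a distance of 0.223, with log2 ratios of 1.24, 1.19 and 1.78 in nrpe1, swi3b +/- and idn2-1 in the authors' deposited tables. ATSDI1, a gene induced by sulphur deficiency, followed at 0.291 and AT4G34150, annotated as a calcium-dependent lipid-binding protein, at 0.359. For the other 4 genes the pattern is a single ratio. Nearest to CBP60G in swi3b +/- were DJ1F, JAZ1 and CYP707A2, and nearest to NIMIN1 in nrpe1 were GDU1, AT5G45430 and DR4. Nearest to PR1 in idn2-1 were AT1G68930, AT4G15120 and AT3G22121, and nearest to EDS1 there were APT3, DiT1 and AT1G42470.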

How the data were processed

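Sequencing covered 12 seedling samples in 4 genotypes of 3 replicates each. TopHat and Cufflinks, with the genome TAIR10, stand in the submitters' processing notes. Per the file headers, the authors' 3 deposited tables hold RPKM (reads per kilobase of transcript, scaled to depth) for Col-0 and a mutant, the log2 fold change between them, and the p-value with its q-value. No source used here gives the method behind the p-values, the pooling of replicates or the depth. A deposited log2 ratio of features at 0 in 1 genotype is a placeholder and was not used. For the rest, the ratio recomputed from RPKM differed by at most 1.24e-05.

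Folds were taken within a table. No new test was possible with 1 value per genotype. The number of features tested was recovered from p, rank and q under Benjamini-Hochberg adjustment. Simulated data made with the same adjustment checked the calculation alone, not the authors' method. Of the estimates from single features, 98.8% in nrpe1, 99.7% in swi3b +/- and 99.4% in idn2-1 lay within 1% of the number used. All 1838 table entries matched by identifier overlapped their RefSeq TAIR10.1 gene. Table starts were raised by 1 to count from 1. The genes described and the lists were chosen with earlier results of these data known. Of 57 pathway genes written down, 3 were left out because the annotation does not pair their name and identifier. Every listed pathway gene is named, with at most 3 of each context list (jasmonate, touch, clock, and flower, root, seed and leaf markers), the 3 nearest genes by log2 ratio at 1 RPKM or more, and direct neighbours. WRKY33, WRKY53 and WRKY70 are given without values. The windows of 50 bases were added after the data were seen. Coding identity came from global alignment of nucleotides in Biopython 1.88 under Python 3.11.15; proteins were not compared. The sequence before PR1 is not reported here. No source used here says whether the libraries kept strand, so overlapping antisense reads cannot be set apart. Columns of per-sample values left unmapped numbered 0.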

Additional observations from a re-analysis of the deposited data

How the results depend on the processing

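Values and calls of the 5 genes were set against 6 other settings. Thresholds were a q-value below 0.01, Bonferroni adjustment, a change of at least 2-fold and at least 1 RPKM in the higher genotype. Pseudocounts were 1 and 0.1 RPKM. No direction could turn, because the thresholds leave a ratio as it is and a pseudocount keeps its sign. PR1, CBP60G and CMPG1 kept their calls under all the thresholds. EDS1 in idn2-1 (log2 0.97) lost its call at a q-value below 0.01, under Bonferroni adjustment and at 2-fold, and NIMIN1 in nrpe1 (log2 1.25) under Bonferroni adjustment, which left 1 of the 5 genes called in nrpe1. Pathway genes in nrpe1 went from 5 to 2 under Bonferroni adjustment and to 2 at 2-fold. In swi3b +/- they went from 11 to 7 under Bonferroni adjustment, and in idn2-1 from 4 to 2 both there and at a q-value below 0.01. All listed genes went in nrpe1 from 471 to 259 at a q-value below 0.01, 112 under Bonferroni adjustment and 191 at 2-fold. In swi3b +/- they went from 617 to 205 under Bonferroni adjustment and 368 at 2-fold, and in idn2-1 from 754 to 316 at a q-value below 0.01 and 88 under Bonferroni adjustment. These settings are stricter by construction. Pseudocounts leave the counts as they are. With 100 bases before the start in place of 250, TTGAC was found before 1 of the 4 genes compared and 21.3% of all. No paired analysis was possible because the tables hold 1 pooled value per genotype, and for the same reason no replicate could be left out. Depth is unknown, which limits what can be said of genes that are not listed.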

Other observations

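A wider set, the 84 reference genes whose annotation text mentions salicylic acid or a salicylate, was counted after the data had been seen. It holds PR1 and CBP60G. In nrpe1 2 of the 84 were listed (2.38%), 1 higher and 1 lower, in swi3b +/- 5 (5.95%), all higher, and in idn2-1 PR1 alone (1.19%). The general shares of features listed were 1.88%, 2.43% and 3.18%. SNC1, an immune receptor gene of the TIR-NBS-LRR class that acts through EDS1, rose 1.58-fold, from 11.1 to 17.6 RPKM, according to the authors' deposited table for nrpe1 (q = 0.0114). The authors' deposited table for swi3b +/- has it at 19.5 RPKM, a rise of 1.76-fold (q = 0.00270). SYP122, a syntaxin of the plasma membrane, rose 2.12-fold, from 12.2 to 25.7 RPKM, according to the same authors' deposited table (q = 0.000112). For the genes named BCS1 and CAD1 in the annotation, the authors' deposited table for swi3b +/- gives rises of 2.43-fold and 1.87-fold (q = 5.65e-06 and 0.00244). GRP-3, which encodes a glycine-rich protein, fell 1.78-fold, from 3038 to 1711 RPKM, according to the authors' deposited table for nrpe1 (q = 0.0208).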
